A study of Mus musculus with 16 samples.

Results

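The genes described here encode the pre-T receptor chain Ptcra, the CD3 chains Cd3d, Cd3e and Cd3g, the zeta chain Cd247, the coreceptor chains Cd4, Cd8a and Cd8b1, the costimulatory receptor Cd28 and the adhesion receptor Cd2. They were taken as a set of symbols, and all 10 were found among the 38293 Ensembl genes counted. They were compared between P6D4, a mouse thymic lymphoma line labelled SCID.adh whose given stage is DN3, and 70Z/3, a mouse lymphoblast line whose labelled stage is Pre-B. Each line has 3 RNA-Seq libraries, and Miz1 ChIP-Seq, which maps the chromosomal binding of the zinc finger factor Miz1, was done once per line. The labels give neither line a treatment. SCID mice carry a mutation of Prkdc, a gene needed to complete V(D)J recombination. Each cell type is represented by 1 line, so lineage and line cannot be told apart, and the labels do not say whether replicates were separate cultures, so p-values speak only of the scatter among these libraries, which can be technical.

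An early thymocyte that has rearranged its T cell receptor beta gene pairs the beta chain with the invariant pre-T alpha chain, the product of Ptcra. The pair signals through the CD3 gamma, delta, epsilon and zeta chains, whose tails carry tyrosine motifs (ITAMs) that are phosphorylated by Lck and then bind kinases of the Syk family. DN3 thymocytes are named for the absence of CD4 and CD8 from the surface, and these coreceptors, which bring Lck to the receptor, appear after the pre-T receptor has signalled. A pre-B cell uses an analogous receptor built from the surrogate light chains Igll1 and Vpreb1 and the signalling chains Cd79a and Cd79b. RNA counts, as used here, do not measure protein at the surface.

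Of the 10 genes, 9 were higher and 1 was lower in P6D4, and the gene that was lower was Cd28. The split was the same when the test was made against a 2-fold difference. The background is high in this comparison: of 13750 genes tested, 43.3% were called higher and 43.2% lower in P6D4 (edgeR quasi-likelihood test, adjusted p under 0.05), and 16.6% passed as higher and 18.6% as lower by more than 2-fold (edgeR glmTreat). The median log2 fold change of the 10 was 8.56, and that of all genes tested was 0.01. In each of the 10 genes the 3 libraries of one line lay on one side of the 3 of the other. Such a separation was seen with P6D4 above in 43.8% and with P6D4 below in 43.6% of all genes tested. Total counts in genes were 48.3 to 54.8 M per library in P6D4 and 45.5 to 48.9 M in 70Z/3. Levels are given as CPM, counts scaled to library size after TMM, which are not divided by transcript length, so that a gene is compared between lines and levels of different genes are not ranked.

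The label of each line was checked against marker genes. The summed level of 9 T lineage markers was 3891 to 3990 CPM per library in P6D4 and 199 to 207 CPM in 70Z/3, and 8 of them were higher in P6D4. The exception was Cd5, a negative regulator of receptor signalling, at 0.979 CPM in P6D4, against 20.8 CPM in 70Z/3. The summed level of 9 B lineage markers was 8.56 to 12.0 CPM in P6D4 and 3825 to 3963 CPM in 70Z/3, and all 9 were lower in P6D4. Cells of the NK lineage also use Cd247 and Cd2, and 7 NK markers summed to 270 to 333 CPM in P6D4 and 23.2 to 24.8 CPM in 70Z/3. Nearly all of the P6D4 sum was the granzyme gene Gzma at 295 CPM. Nkg7 was also called higher, at 4.11 CPM in P6D4, against 0.221 CPM in 70Z/3. Prf1 and Ncr1 had 47 and 16 counts in all in P6D4 and none in 70Z/3. Klrd1 had no count in P6D4 and stood at 21.0 CPM in 70Z/3, Klrb1c was at 0.169 CPM in P6D4, against 2.47 CPM in 70Z/3, and Eomes had no count in either line. Myeloid, dendritic, erythroid and stromal sums were 31.1 to 37.8, 0.0759 to 0.123, 0.577 to 0.636 and 60.9 to 69.7 CPM in P6D4, against 23.3 to 24.9, 0.333 to 0.553, 0.866 to 0.953 and 81.1 to 87.4 CPM in 70Z/3. Most of the stromal sum was Pecam1, at 60.8 CPM in P6D4, against 82.8 CPM in 70Z/3. Pdgfrb was at 4.05 CPM in P6D4, against 0.623 CPM in 70Z/3, and Col1a1, Col1a2 and Dcn had no count in P6D4. Most of the P6D4 myeloid sum was Itgam, at 29.1 CPM, against 7.07 CPM in 70Z/3. Lyz2 went the other way, at 1.96 CPM in P6D4, against 12.3 CPM in 70Z/3. The part of these markers in the results was not tested.

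The 3 CD3 genes lie side by side on chromosome 9 within 40.09 kb (GRCm38.p6), with Cd3g on the minus strand at 44969572 to 44980431, Cd3d on the plus strand at 44981769 to 44987052 and Cd3e on the minus strand at 44998735 to 45009663. Cd3g and Cd3d start head to head, 1.338 kb apart. Ptcra lies on the minus strand of chromosome 17 at 46755663 to 46763712. Upstream sequence was on hand for 6 of the 10 genes in the RefSeq promoter table of GRCm38.p6, and the 250 bases before the start of 4 of them are shown, because these are the pre-T receptor chain and the CD3 cluster whose transcripts were high in P6D4 together. Each reads 5′ to 3′ towards its gene, and capitals mark every match to CANNTG (N is any base), the E-box bound by E proteins, on either strand. The windows are chr17:46763713-46763962 on the minus strand for Ptcra, chr9:44980432-44980681 on the minus strand for Cd3g, chr9:44981536-44981785 on the plus strand for Cd3d and chr9:45009612-45009861 on the minus strand for Cd3e. RefSeq starts differ by some bases from the gene bounds for Cd3d and Cd3e, whose windows overlap those bounds.
Ptcra: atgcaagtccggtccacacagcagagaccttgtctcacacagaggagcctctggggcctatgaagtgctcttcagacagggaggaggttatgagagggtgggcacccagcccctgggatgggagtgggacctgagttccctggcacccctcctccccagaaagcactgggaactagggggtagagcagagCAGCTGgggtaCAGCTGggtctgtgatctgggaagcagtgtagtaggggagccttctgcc
Cd3g: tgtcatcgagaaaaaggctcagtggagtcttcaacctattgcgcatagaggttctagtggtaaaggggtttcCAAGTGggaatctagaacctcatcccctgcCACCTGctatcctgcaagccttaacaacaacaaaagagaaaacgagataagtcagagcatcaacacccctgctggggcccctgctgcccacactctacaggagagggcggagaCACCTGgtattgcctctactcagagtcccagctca
Cd3d: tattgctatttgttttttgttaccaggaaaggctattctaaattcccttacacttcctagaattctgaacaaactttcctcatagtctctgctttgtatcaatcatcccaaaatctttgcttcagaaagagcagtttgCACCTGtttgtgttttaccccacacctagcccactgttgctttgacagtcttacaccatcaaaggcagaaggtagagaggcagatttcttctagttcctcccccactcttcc
Cd3e: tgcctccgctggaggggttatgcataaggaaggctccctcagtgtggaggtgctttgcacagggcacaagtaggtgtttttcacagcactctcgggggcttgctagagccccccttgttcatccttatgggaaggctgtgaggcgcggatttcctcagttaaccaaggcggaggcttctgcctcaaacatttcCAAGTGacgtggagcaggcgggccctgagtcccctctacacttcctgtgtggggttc

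The Ptcra window holds 2 copies of CAGCTG, starting 60 and 49 bases before the gene's start. Cd3g has 3 E-box matches, Cd3d 1 and Cd3e 1, and the windows of Cd247 and Cd8a hold 2 each. The Cd247 window, chr1:165788431-165788680, precedes a RefSeq start that lies well inside the gene's bounds. All 6 windows thus hold a CANNTG match, which 66.0% of 27025 promoters of the same length also do. The form CAGNTG, a subset of CANNTG, was found in 4 of the 6 windows, against 44.5% of all promoters. TGGGAA, the core bound by the Notch partner CSL, was found in 4 (Ptcra, Cd3e, Cd3g and Cd8a), against 21.5%. GGAAGT, an ETS core, was found in 3 (Cd3d, Cd3e and Cd247), against 20.0%. AGATAA, the core for GATA factors, was found in 1 (Cd3g), against 10.3%, and CTTTGA, a TCF and LEF core, in 1 (Cd3d), against 14.0%. TGTGGT, a Runx core, and TATAAA, the TATA box, were found in none of the 6 windows, against 14.2% and 13.0% of all promoters. Each motif was searched on both strands, and a match is a string of letters and not a shown binding site.

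Ptcra transcripts were present in every P6D4 library and almost absent from 70Z/3. Its level was 30.1, 31.6 and 29.9 CPM in P6D4 replicates 1, 2 and 3, from 1669, 1667 and 1457 counts. In 70Z/3 replicates 1, 2 and 3 its counts were 0, 3 and 0. The P6D4 libraries lie close together, and all 70Z/3 counts come from a single library. In bulk RNA, fewer cells with a transcript and less of it per cell cannot be told apart. The ratio of P6D4 to 70Z/3 was 1428, with a 95% counting interval of 488 to 6929 (exact, counting error only), and edgeR gave an adjusted p of 7.0e-15. The fitted log2 fold change was 10.32, and it became 13.57 without 70Z/3 replicate 2, when no count was left in 70Z/3, so that this value is no bound.

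Of the constant region genes of the receptor beta chain, the partner of pre-T alpha, 1 had enough counts to test. Whether its RNA comes from a rearranged gene was not tested. Trbc2 had 618, 579 and 527 counts in P6D4 and none in any 70Z/3 library, which makes it at least 165-fold higher against a floor of 3 counts per library (edgeR adjusted p = 2.1e-12). Trbc1 had 0, 0 and 3 counts in P6D4 and none in 70Z/3, and the alpha chain constant gene Trac had 2, 0 and 0 counts in P6D4 and 0, 1 and 3 in 70Z/3. Neither could be tested. Of 7 constant region genes listed, the gamma and delta genes Trdc, Trgc1, Trgc2 and Trgc4 were not matched to a counted gene and were not analysed here. Trbc1 and Trbc2 are close copies, so counts of reads that match both are uncertain.

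**Figure D1:**
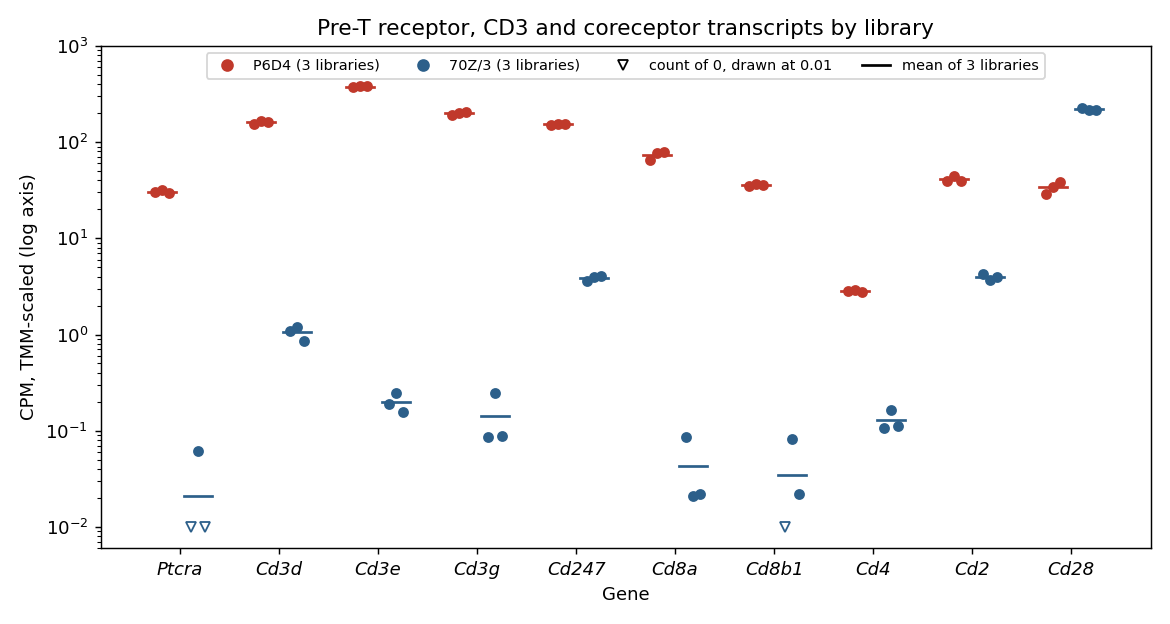
Level of each gene in each library as CPM on a log axis, P6D4 in red on the left and 70Z/3 in blue on the right of each gene, with a bar at the mean of 3 libraries and open triangles for libraries with a count of 0. P6D4 lies above 70Z/3 for 9 genes and below it for Cd28, at 33.9 against 219 CPM on average.

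The CD3 genes were high in every P6D4 library, and Cd3d had a smaller ratio between the lines than its neighbours. Cd3e, the epsilon chain, which pairs with both gamma and delta, was at 370, 382 and 382 CPM in P6D4, against 0.192, 0.249 and 0.155 CPM in 70Z/3. edgeR put its log2 fold change at 10.87 ± 0.07 (SE), with an adjusted p of 1.2e-18. Each SE is the fold change over the root of the F statistic and understates counting error in genes with few counts, such as the 28 of Cd3e in 70Z/3. Cd3g, the gamma chain, was at 192, 202 and 206 CPM in P6D4, against 0.0851, 0.249 and 0.0888 CPM in 70Z/3. The fitted value was 10.43 ± 0.11 (SE; adjusted p = 1.4e-17 by edgeR), from 20 counts in all in 70Z/3. Of these 20 counts 12 were in replicate 2, and without that library the value was 11.12. Cd3d, the delta chain, was at 153, 166 and 162 CPM in P6D4, against 1.09, 1.202 and 0.866 CPM in 70Z/3. On the log2 scale it was higher by 7.24 ± 0.07 (SE; adjusted p = 1.4e-17 by edgeR), the smallest fitted value of the 3 CD3 genes.

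The balance of the chains was compared within libraries, a comparison chosen after the values were seen. There were 0.798, 0.823 and 0.788 Cd3d counts per Cd3g count in P6D4, against 12.75, 4.83 and 9.75 in 70Z/3, so the libraries of the lines did not overlap. Per Cd3e count, Cd3d had 0.414, 0.434 and 0.425 counts in P6D4, against 5.67, 4.83 and 5.57 in 70Z/3. For both ratios the exact permutation p, two-sided, was 0.10, the smallest that 3 libraries against 3 allow, and 0.15 after adjustment over 3 ratios. The ratio of Cd3e to Cd3g was 1.93, 1.90 and 1.86 in P6D4, against 2.25, 1.00 and 1.75 in 70Z/3, and the lines overlapped (exact permutation p = 0.70, two-sided, adjusted p = 0.70). The 70Z/3 ratios with Cd3g rest on 4, 12 and 4 Cd3g counts.

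Cd247 encodes the zeta chain, which carries the largest number of signalling motifs in the complex and is also used by Fc receptors of NK cells. It was at 152, 153 and 153 CPM in P6D4, against 3.64, 3.92 and 4.02 CPM in 70Z/3. The spread of the P6D4 libraries, a coefficient of variation of 0.654%, was below the 1.12% expected from counting alone. edgeR put its log2 fold change at 5.31 ± 0.05 (SE), with an adjusted p of 6.2e-18. The 70Z/3 level rests on 171, 189 and 181 counts. Cd247, on chromosome 1 at 165779952 to 165871153, overlaps the bounds of Pou2f1 in RefSeq, and since no source used here states whether counting used strand, part of these counts could belong to the neighbour. Pou2f1 was at 143 ± 8.81 CPM in P6D4, against 140.2 ± 5.45 CPM in 70Z/3 (SD, n = 3).

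CD8 transcripts were present in every library of P6D4, a line labelled DN3, and nearly absent from 70Z/3. Cd8a, the alpha chain of CD8, was at 64.8, 76.9 and 79.2 CPM in P6D4, against 0.0851, 0.0207 and 0.0222 CPM in 70Z/3. Its 70Z/3 values stand for 4, 1 and 1 counts, and the ratio of P6D4 to 70Z/3 was 1714 with a 95% counting interval of 787 to 4671. edgeR gave 10.67 ± 0.18 on the log2 scale (SE; adjusted p = 2.1e-15), and 11.58 without 70Z/3 replicate 1. Cd8b1, the beta chain, was at 35.4, 36.3 and 35.4 CPM in P6D4, and its counts in 70Z/3 were 0, 4 and 1. The ratio was 1002 with an interval of 429 to 3087, and the fitted log2 value of 9.87 ± 0.17 (SE; adjusted p = 2.4e-15 by edgeR) became 11.38 without 70Z/3 replicate 2. Cd8b1 and Cd8a are neighbours on chromosome 6, 35.94 kb apart.

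Cd4 had few counts in both lines. Its level was 2.83, 2.88 and 2.75 CPM in P6D4, against 0.106, 0.166 and 0.111 CPM in 70Z/3, from 157, 152 and 134 counts in P6D4 and 5, 8 and 5 in 70Z/3. The lines did not overlap, and edgeR put the log2 fold change at 4.43 ± 0.20 (SE), with an adjusted p of 9.9e-11.

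Cd2 and Cd28 had the lowest ratios of P6D4 to 70Z/3 among the 10 genes. Cd2, a receptor for CD48 that mouse B cells also carry, was at 39.6, 44.5 and 39.3 CPM in P6D4, against 4.21, 3.65 and 3.93 CPM in 70Z/3. It was higher by 3.39 ± 0.08 on the log2 scale (SE; adjusted p = 3.5e-14 by edgeR). Cd28, the costimulatory receptor for CD80 and CD86, was at 29.0, 34.1 and 38.6 CPM in P6D4, against 224, 214 and 218 CPM in 70Z/3. The fitted log2 value was -2.69 ± 0.07 (SE; adjusted p = 3.6e-13 by edgeR), so that P6D4 had 6.46-fold less Cd28 RNA. All 3 P6D4 libraries were far below all 3 of 70Z/3. In P6D4 the Cd28 libraries spread more than those of the other 9 genes, with a coefficient of variation of 14.3% against 2.38% expected from counting, followed by Cd8a at 10.5% against 1.62%.

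**Figure D2:**
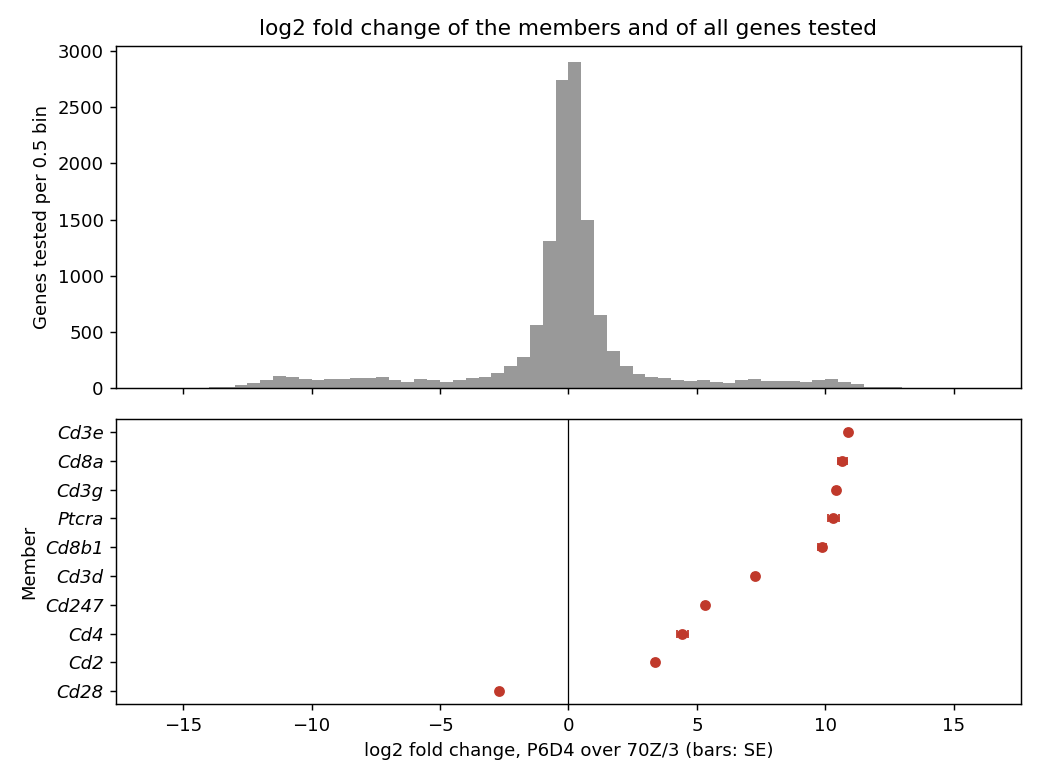
The upper panel counts the 13750 genes tested by log2 fold change in bins of 0.5, and the lower panel gives the log2 fold change of P6D4 over 70Z/3 for each of the 10 genes with its SE. Values run from -2.69 for Cd28 to 10.87 for Cd3e, with the bulk of all genes near 0.

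By fitted log2 fold change the 10 genes spread over ranks 93 (Cd3e) to 1141 (Cd2) from the highest of 13750 and, for Cd28, rank 1685 from the lowest. The 5 highest ratios of P6D4 to 70Z/3 were 1428 (Ptcra), 1893 (Cd3e), 1399 (Cd3g), 1714 (Cd8a) and 1002 (Cd8b1), and their 95% counting intervals all overlap. These genes had 3 to 28 counts in all in 70Z/3, and Cd4, with 18, had a ratio of 22.0. The intervals of Cd3d, Cd247, Cd4 and Cd2 lie at 129 to 180, 36.4 to 43.2, 13.8 to 37.5 and 9.60 to 11.4, below these. Whether the few 70Z/3 counts of the 5 genes come from transcripts of 70Z/3 cells was not tested. Among 6430 tested genes with at least the 4793 P6D4 counts of Ptcra, 3 had no count in 70Z/3 and 23 had 3 or fewer, and the most abundant without a count was Stra6 with 11047 counts in P6D4.

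The genes with the most similar profile over the 6 libraries were found by Euclidean distance of log2 CPM. Nearest to Ptcra were Hspg2, Zfp799 and Itm2c, at distances of 0.113, 0.497 and 0.675. Hspg2, which encodes perlecan, was at 31.1 ± 1.22 CPM in P6D4, against 0.0207 ± 0.0359 CPM in 70Z/3 (SD, n = 3). Nearest to Cd3e were Themis, Aes and Afdn, at 0.659, 0.756 and 0.794. Themis, a thymocyte protein of receptor signalling, was at 346 ± 20.9 CPM in P6D4, against 0.183 ± 0.0839 CPM in 70Z/3. Nearest to Cd8a were Ankrd50, Ptk2 and Arhgap5, at 0.493, 0.643 and 0.759, and nearest to Cd2 were 5830418P13Rik, H2-Eb2 and Ston2, at 0.401, 0.404 and 0.437. These distances are descriptions over 6 libraries of 2 lines. They take in the level of a gene, which is not divided by transcript length, as well as its difference between the lines.

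Kinases, phosphatases and regulators of receptor signalling were called in both directions. Of 14 tested, 7 were higher and 7 lower in P6D4, near the 43.3% and 43.2% of all genes, with a median log2 fold change of -0.05. Past 2-fold, 4 were higher and 4 lower, against 16.6% and 18.6% of all genes. Lck, the kinase carried by CD4 and CD8, was at 398 ± 4.43 CPM in P6D4, against 95.2 ± 1.57 CPM in 70Z/3 (SD, n = 3), higher by 2.07 ± 0.03 on the log2 scale (SE; adjusted p = 8.8e-16 by edgeR), named after its values were seen. Txk, a Tec family kinase, was at 1.25 CPM in P6D4, against 3 counts in all in 70Z/3, a ratio of 57.8 (95% counting interval 19.5 to 283). Syk, which in pre-B cells binds the phosphorylated motifs, had just 3 counts over all P6D4 libraries, against 120.3 ± 3.99 CPM in 70Z/3. The ratio of 70Z/3 to P6D4 was 6292 (95% counting interval 2153 to 30513). Zap70 and Fyn, also named after their values were seen, were at 52.4 and 150 CPM in P6D4, against 92.7 and 222 CPM in 70Z/3. Both were called lower, at log2 fold changes of -0.82 ± 0.04 and -0.57 ± 0.04 (SE). The phosphatase Ptpn22 was lower in P6D4, at -3.44 ± 0.05 (SE).

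Adaptors that link the receptor to calcium and Ras signalling were also called in both directions. Of 20 tested, 10 were higher and 7 lower, against 43.3% and 43.2% of all genes, and 3 missed the threshold. Their median was 0.21, and 8 were higher and 3 lower by more than 2-fold, against 16.6% and 18.6% of all genes. Themis was higher by 10.85 ± 0.11 and Fyb1 (Fyb in the name table), an adaptor that couples the receptor to integrins, by 10.42 ± 0.13 (SE, edgeR adjusted p at most 8.5e-17). Sh2d2a and Unc119, which bind Lck family kinases, were lower, at -3.13 ± 0.08 and -1.56 ± 0.06 (SE). The uncalled adaptors were Grb2, Sos1 and Nck1, at 141, 62.9 and 33.0 CPM in P6D4, against 138, 60.1 and 31.5 CPM in 70Z/3, named after their values were seen.

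Among 11 ligands and other surface molecules of this system tested, 3 were higher and 7 lower in P6D4, against 43.3% and 43.2% of all genes. A single gene missed the threshold, and the median was -1.24. Past 2-fold, 2 were higher and 6 lower, against 16.6% and 18.6% of all genes. Whether the list differs from other genes was not tested. Cd27, a costimulatory receptor, was at 10.8 ± 0.911 CPM in P6D4 (SD, n = 3), against a single count in 70Z/3, a ratio of 1506 (95% counting interval 270 to 59503), and Lag3, a receptor for MHC class II encoded next to Cd4, was higher by 4.87 ± 0.39 (SE). Cd244a, another receptor for CD48, and Pdcd1, an inhibitory receptor of the CD28 family, were lower, at -11.40 ± 0.13 and -10.32 ± 0.11 (SE). They had 6 and 8 counts in all in P6D4, so the SE understates their counting error. The ligands of the members were named after their values were seen: Cd48, bound by Cd2, was at 37.5 ± 2.48 CPM in P6D4, against 63.8 ± 1.75 CPM in 70Z/3 (SD, n = 3), Cd80, bound by Cd28, was at 1.39 ± 0.190 CPM in P6D4, against 3.29 ± 0.239 CPM in 70Z/3, and Cd86 had no count in either line. Icos, a relative of Cd28, was not called, at 0.435 CPM in P6D4, against 0.421 CPM in 70Z/3.

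The listed transcription factors were called in both directions, and whether they act on the loci of the members was not tested. Of 17 tested, 11 were higher and 6 lower, against 43.3% and 43.2% of all genes, with a median of 0.31. By more than 2-fold, 7 were higher and 4 lower, against 16.6% and 18.6% of all genes. Bcl11b, needed for commitment to the T lineage, was higher by 10.36 ± 0.08 (SE; adjusted p = 2.1e-18 by edgeR), and Sox13, a factor of gamma delta T cells, by 8.95 ± 0.18 from 4 counts in all in 70Z/3. Runx3, which in mature CD8 T cells silences Cd4, was lower, at -6.01 ± 0.08, and Lef1 at -3.29 ± 0.05 (SE). The pre-B counterparts of the receptor ran the other way as a list: of 13 tested, 0 were higher and 13 lower in P6D4, with a median of -10.58, against 43.2% of all genes called lower. Igll1, the surrogate light chain, had 6, 6 and 8 counts in P6D4, against 17284, 18500 and 16515 in 70Z/3 (log2 fold change -11.49 ± 0.08, SE), and Blk, a Src family kinase of B cells, had 2 counts in all in P6D4. In this list the smallest differences were those of Cd22 and Ighm, at -5.96 ± 0.06 and -7.84 ± 0.11 (SE).

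**Figure D3:**
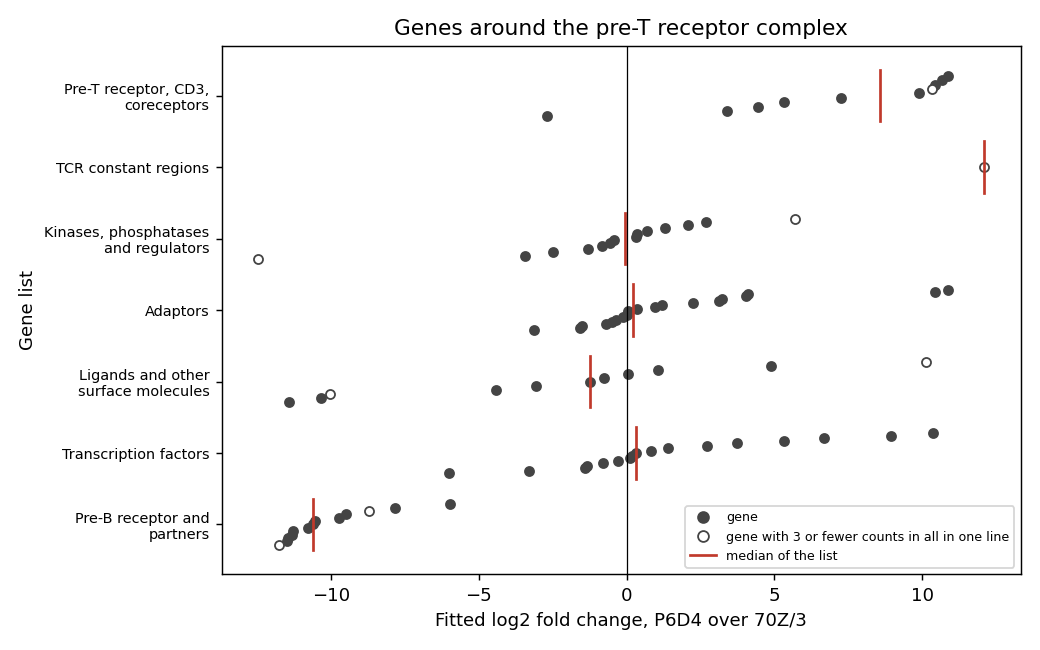
Each point is a tested gene of a list, placed by its fitted log2 fold change of P6D4 over 70Z/3, with a red bar at the list's median and open points for genes with 3 or fewer counts in all in one line, whose fitted value is uncertain. Medians are 8.56 for the receptor and coreceptor genes, -0.05 for kinases and regulators, 0.21 for adaptors, 0.31 for factors and -10.58 for the pre-B counterparts.

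Genes next to the members differed between loci. Of 14 protein-coding neighbours that are no members, 11 could be tested, 8 were higher and 2 lower, against 43.3% and 43.2% of all genes, and 1 missed the threshold. By more than 2-fold, 5 were higher and 1 lower, against 16.6% and 18.6% of all genes. Their median log2 fold change was 0.68, also with Mpzl2, which had no count in 70Z/3, at its bound. Several genes beside Ptcra, Cd3g and Cd8a differed by less than 2-fold. Cnpy3, 2.95 kb from Ptcra, was higher by 0.20 ± 0.04, Ube4a, 3.957 kb from Cd3g, by 0.68 ± 0.03, and Rmnd5a, 9.463 kb from Cd8a, was lower, at -0.43 ± 0.04 (SE; edgeR adjusted p at most 0.00016). On the far side of the CD3 cluster Mpzl2, 32.68 kb from Cd3e, was at 1.22 ± 0.0780 CPM in P6D4 (SD, n = 3) and at least 18.3-fold higher.

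Around Cd4, Cd28 and Cd2 some neighbours had a larger fitted difference between the lines than the member, in the same direction. Whether they differ from the member was not tested. Gpr162, 0.498 kb from Cd4, was at 13.6 ± 1.28 CPM in P6D4, against 0.143 ± 0.0504 CPM in 70Z/3 (SD, n = 3), and Lag3 lies 16.11 kb away on the other side. Their log2 fold changes were 6.55 ± 0.18 and 4.87 ± 0.39, against 4.43 ± 0.20 for Cd4 (SE). Raph1, 179.3 kb from Cd28, was lower in P6D4, at -6.52 ± 0.12, and Ctla4, on the other side of Cd28, had too few counts to test, with 7 in all in P6D4 and 23 in 70Z/3. Igsf3, 88.73 kb from Cd2, was higher by 10.10 ± 0.11 (SE), from 10 counts in all in 70Z/3. Beside Cd247, Creg1 was higher by 1.25 ± 0.04 (SE), and the overlapping Pou2f1 was not called (edgeR adjusted p = 0.52). Next to Ptcra, 2310039H08Rik was higher by 0.67 ± 0.08. Gm1070 beside Cd8b1 had too few counts to test, and Gm52612 beside Cd2 was not matched.

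**Figure D4:**
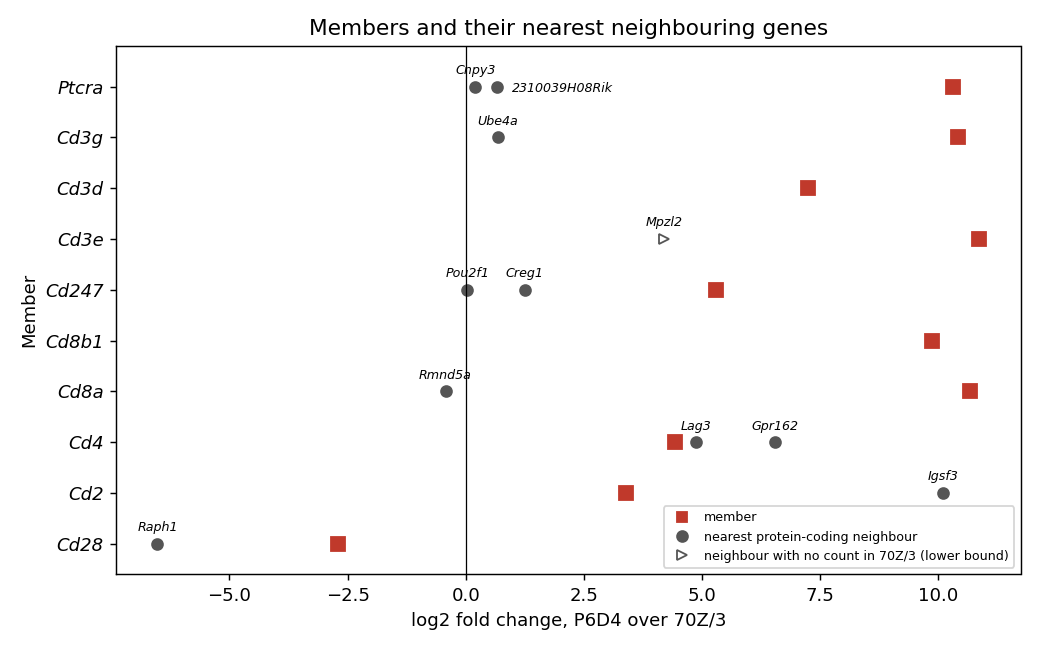
Squares give the log2 fold change of P6D4 over 70Z/3 for each member. Circles give that of its nearest tested protein-coding neighbours that are no members, with an open triangle for a lower bound. Neighbours that are members, such as Cd3d beside Cd3g and Cd8b1 beside Cd8a, are not drawn as circles. Ptcra, Cd3g and Cd8a stand far to the right of the neighbours drawn, while Gpr162 and Lag3 stand beside or beyond Cd4.

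The Miz1 peaks called by the authors were mostly far from these genes. In the P6D4 list of 21629 peaks, none of the 10 genes had a peak within 10 kb of its bounds, where 14.7% of 21900 protein-coding genes had one. In the 70Z/3 list of 10462 peaks, 2 of the 10 had one, against 15.8% of protein-coding genes. With 10 genes these shares are near the background. The peak by Ptcra, chr17:46767861-46768259, had its summit 4318 bp before the gene's start and a fold of 7.88 over local background, which is the authors' value and ranks 3661 in that list. The peak in Cd247, chr1:165863582-165864303, had its summit inside the gene's bounds, a fold of 7.83 and rank 4459. The nearest peak to the CD3 cluster was 598 kb from Cd3g in the P6D4 list and 170.0 kb from it in the 70Z/3 list. Cd8b1 had its nearest P6D4 peak at 11.5 kb, and Cd28 had peaks at 15.2 kb in the P6D4 list and 16.6 kb in the 70Z/3 list. With 1 ChIP library per line none of this has a replicate check, and the libraries differed in depth. P6D4 had 60.8 M tags, of which 2.07 M were kept, and 70Z/3 had 30.9 M tags, of which 4.48 M were kept.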

How the data were processed

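RNA-Seq counts from 3 libraries each of P6D4 and 70Z/3 and the Miz1 peak lists of 1 ChIP library per line were analysed; the other ChIP samples were not used here. The authors deposited whole-number counts per Ensembl gene, not normalised. Per the submitters' processing notes, TopHat2 2.0.10, Bowtie2 2.10, SAMtools, bedtools and HTSeq were used, and the builds named are mm10 and GRCm38. The RNA library kit was a stranded one, per the labels. The 5 summary lines per file were left out. They hold 14.5 to 16.0% of uniquely aligned reads as reads outside genes and 0.382 to 0.424% as ambiguous. Per the file headers, peaks were called with MACS 2.0.10.20120913 at a q-value threshold of 0.01, and the authors' values per peak are a pileup signal, a fold ratio over local background and -log10 p and q.

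Counts were scaled with TMM, filtered with filterByExpr and tested over all 13750 remaining genes with edgeR 4.0.16 (quasi-likelihood test, and glmTreat at a log2 fold change of 1; Benjamini-Hochberg, 0.05), with cell line as the only term. The steps were tested on simulated data. Far fewer genes changed there than between the lines, so that test does not cover the scaling in this comparison. Symbols came from a name table that matched 36345 of 38293 genes, and positions and neighbours from RefSeq GRCm38.p6. Distances between profiles use log2 CPM with a prior count of 2. Counting intervals are exact (95%). A gene at 0 in a line was given a floor of 3 counts per library of the smallest library (0.0666 CPM in 70Z/3). No replicates agreed within sampling noise (2.46 to 13.8 as chi-square over its degrees of freedom). Alternatives were RLE and upper quartile scaling, no filter, at least 10 counts in 3 libraries, DESeq2 1.42.0, a replicate block and leaving out each library. Genes named are the 10 members, the 2 highest and 2 lowest called genes of each list, the nearest protein-coding neighbours and the 3 nearest profiles of Ptcra, Cd3e, Cd8a and Cd2; others are marked, and 1 gene that the rule names is not reported here. The members and lists were chosen with earlier results of these data known. Motifs and the ratios of CD3 chains were chosen after the values were seen. R was 4.3.3, scipy 1.17.1 and matplotlib 3.10.9.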

Additional observations from a re-analysis of the deposited data

How the results depend on the processing

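All 10 members kept their direction and stayed past the threshold under the 12 alternatives (RLE and upper quartile scaling, no filter, at least 10 counts in 3 libraries, DESeq2, a replicate block and leaving out each of 6 libraries), and all 120 of these values were called. The members called higher were 9 and lower 1 in each. Over all genes, 5687 to 6635 were called higher and 5599 to 6718 lower, against 5955 and 5936. The replicate block gave 5867 higher and 5847 lower and changed no call of a member or a list count. Of the pathway lists, adaptors gave 10 to 13 higher and 6 to 7 lower, factors 10 to 11 higher and ligands 7 to 8 lower. Same-numbered libraries of the lines share only a number: the correlations of their deviations from the line means were -0.06, -0.05 and 0.01, and no P6D4 library correlated best with its own number. Among the members, 4 values moved by over 1.5 times when 1 library of 70Z/3 was left out, as given beside Ptcra, Cd3g, Cd8a and Cd8b1. These values rest on 3 to 20 counts there, spread unevenly over the libraries, and Cd4, with 18 counts, moved less. Of the Miz1 counts, 1 member had a 70Z/3 peak within 1 kb in place of 2 within 10 kb. At 1 kb 11.1% of protein-coding genes had a 70Z/3 peak. In the P6D4 list 0 members had a peak within 1 kb, against 9.56% of protein-coding genes. Within 50 kb 2 members had a P6D4 peak and 4 a 70Z/3 peak, where 34.6% and 35.5% of protein-coding genes had one. With peaks of -log10 q of at least 5 the counts were 0 in P6D4 and 2 in 70Z/3, as before. The shares of protein-coding genes were then 13.2% and 14.0%.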
